A study of Mus musculus with 8 samples.

Results

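The transcripts described here are those of 9 genes, the BET bromodomain genes Brd2 and Brd3 and 7 genes of the elongation kinase P-TEFb and of the 7SK particle that holds it inactive. They were taken by symbol from the 43629 genes of the count table, and each symbol matched 1 Ensembl identifier. The cells were Eμ-Myc lymphoma lines #1.2 and #1.1, which come from mice of the C57BL/6 strain that carry a Myc transgene driven by the immunoglobulin heavy chain enhancer in B lineage cells. Early passage cells of each line were cultured for 2 h with 250 nM JQ1, or with the solvent DMSO. Each of the 4 groups (line 1.2 JQ1, line 1.2 DMSO, line 1.1 JQ1, line 1.1 DMSO) had 2 libraries, 8 in all. The labels name no separate cultures behind the replicates, and p-values therefore rest on variation among libraries that could be technical only.

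BET proteins bind acetylated lysines on histones through paired bromodomains, and JQ1 occupies the pocket that binds the lysine. P-TEFb consists of the kinase CDK9 and a cyclin T (CCNT1 or CCNT2). It phosphorylates RNA polymerase II and the factors that hold the polymerase paused near promoters, which lets elongation begin. A large pool of P-TEFb is kept inactive by the HEXIM proteins on the noncoding RNA 7SK, whose ends are protected by LARP7 and by the capping enzyme MEPCE. HEXIM1 mRNA is widely used as a marker of BET inhibitor exposure.

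Libraries held between 10347453 and 13049877 reads assigned to genes. Reads in no gene made up 14.0 to 14.4% in JQ1 libraries, against 12.3 to 13.1% in DMSO libraries, without overlap. All 8 B lineage markers were measured, with a summed level of 2773 to 3235 CPM (read counts relative to the TMM-scaled library size) in JQ1 libraries and 3266 to 3604 CPM in DMSO libraries. Myeloid markers summed to 0.621 to 1.91 CPM in JQ1 libraries and 1.147 to 2.26 CPM in DMSO libraries, stromal and endothelial markers to 0 to 0.352 and 1.147 to 1.53 CPM, and NK cell markers to 0 to 0.176 and 0.248 to 0.993 CPM. T cell and erythroid sums reached at most 0.248 CPM, and Cd3e, Lyz2, Ncr1, Hba-a1 and Col1a1 had no read in any library. The stromal and endothelial sum came from Cdh5 alone, since Col1a1, Col1a2, Pdgfrb and Kdr had no read. The NK cell sum likewise came from Klrb1c alone, so both are levels of a single gene near the floor. Gm42418, a transcript that overlaps ribosomal RNA sequence, stood at 1296 and 2644 CPM in the line 1.2 JQ1 libraries, against 341 to 977 CPM in the other 6. The part of the reads in no gene and of the marker levels in the results was not tested, and that of Gm42418 only by a fit with its level as a covariate.

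The 9 genes are spread over 7 chromosomes (GRCm38, GENCODE M21). Hexim1 (ENSMUSG00000048878, chromosome 11, 103116231 to 103119725) is a gene of 1 exon, and Hexim2 (ENSMUSG00000043372, chromosome 11, 103132429 to 103139876) begins 12704 bases downstream of it on the same strand. Brd3 (ENSMUSG00000026918, 27445579 to 27507662) and Cdk9 (ENSMUSG00000009555, 32705784 to 32713076) both lie on the minus strand of chromosome 2. Brd2 (ENSMUSG00000024335, 34112023 to 34122634) is on chromosome 17, Ccnt1 (ENSMUSG00000011960, 98538689 to 98570923) on chromosome 15, Ccnt2 (ENSMUSG00000026349, 127774164 to 127808061) on chromosome 1, Larp7 (ENSMUSG00000027968, 127536714 to 127553349) on chromosome 3 and Mepce (ENSMUSG00000029726, 137781906 to 137787655) on chromosome 5. The strand setting of the counting is not given in the sources used here, so reads of a gene and of its antisense partner cannot be told apart. H2-DMa overlaps 360 exonic bases of Brd2 and had 0 to 2 reads per library, and 9330020H09Rik overlaps 695 exonic bases of Ccnt1 and had 16 to 32 reads.

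Promoter windows of 300 bases from RefSeq (GRCm38.p6), 250 before and 50 after the start, were at hand for 7 of the 9 genes. The set used here held no window for Hexim2 and Mepce. The windows of both BET genes, of Hexim1 and of both cyclins are shown because the members of these families moved apart under JQ1 (values below). They are written 5′ to 3′ on the strand of the gene, at chr17:34122558-34122857 (Brd2, minus strand, the outermost of its 3 windows), chr2:27475349-27475648 (Brd3, minus), chr11:103116075-103116374 (Hexim1, plus), chr15:98567687-98567986 (Ccnt1, minus) and chr1:127773914-127774213 (Ccnt2, plus). The RefSeq starts of Brd2, Brd3, Hexim1 and Ccnt1 lie inside the longer gene spans of GENCODE. Capitals mark every match, on either strand, to the GC box GGGCGG, to the CCAAT box, to the ETS-type motif CGGAAG, to the E-box CACGTG or to the TATA motif TATAAA, and matches may overlap (in Ccnt1 and Ccnt2 they do).
Brd2: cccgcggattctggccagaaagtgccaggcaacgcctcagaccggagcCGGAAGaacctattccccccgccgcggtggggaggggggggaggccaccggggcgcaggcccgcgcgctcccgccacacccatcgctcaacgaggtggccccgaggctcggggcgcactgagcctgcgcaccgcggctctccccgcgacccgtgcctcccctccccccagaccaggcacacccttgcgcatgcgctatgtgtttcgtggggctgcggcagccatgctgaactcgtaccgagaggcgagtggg
Brd3: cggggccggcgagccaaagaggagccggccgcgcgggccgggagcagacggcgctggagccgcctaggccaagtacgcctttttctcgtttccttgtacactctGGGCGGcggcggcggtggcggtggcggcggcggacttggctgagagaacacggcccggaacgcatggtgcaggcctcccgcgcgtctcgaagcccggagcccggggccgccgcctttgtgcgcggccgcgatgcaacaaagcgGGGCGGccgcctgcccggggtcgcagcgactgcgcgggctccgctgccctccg
Hexim1: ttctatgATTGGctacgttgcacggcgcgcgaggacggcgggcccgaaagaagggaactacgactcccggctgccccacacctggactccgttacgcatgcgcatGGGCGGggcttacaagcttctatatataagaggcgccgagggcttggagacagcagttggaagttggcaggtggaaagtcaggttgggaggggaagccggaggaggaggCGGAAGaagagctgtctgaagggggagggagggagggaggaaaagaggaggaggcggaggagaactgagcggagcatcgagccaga
Ccnt1: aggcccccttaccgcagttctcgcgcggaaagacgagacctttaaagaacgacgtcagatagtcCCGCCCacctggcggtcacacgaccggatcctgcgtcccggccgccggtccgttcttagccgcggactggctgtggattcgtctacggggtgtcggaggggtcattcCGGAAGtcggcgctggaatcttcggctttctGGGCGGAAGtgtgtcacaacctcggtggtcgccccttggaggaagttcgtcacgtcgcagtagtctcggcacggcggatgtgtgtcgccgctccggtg
Ccnt2: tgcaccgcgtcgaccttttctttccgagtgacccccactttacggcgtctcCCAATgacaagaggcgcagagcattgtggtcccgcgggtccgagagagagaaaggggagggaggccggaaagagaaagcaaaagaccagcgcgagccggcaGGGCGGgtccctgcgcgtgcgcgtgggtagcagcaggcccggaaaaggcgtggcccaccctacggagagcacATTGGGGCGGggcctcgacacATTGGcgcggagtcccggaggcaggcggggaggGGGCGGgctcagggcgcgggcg

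The windows were rich in G and C, at 58.7 to 78.3% over all 9 windows of the 7 genes, against a median of 52.7% over the 32851 windows of the table. They held 14 to 46 CG dinucleotides, against a median of 7. The E-box CACGTG, the sequence that MYC and MAX bind, was in none of them and in 7.15% of all windows, and TATAAA was in none and in 13.6% of all. GGGCGG was in the windows of all 7 genes, although not in the outermost Brd2 window, and in 35.7% of all. CGGAAG was in those of Brd2, Hexim1, Cdk9 and Ccnt1 and in 16.9% of all, and CCAAT in those of Hexim1, Cdk9, Ccnt2 and Larp7 and in 37.4% of all. Only exact strings were counted, so near matches such as tatatataag in the Hexim1 window are neither marked nor counted. A match is a description of the letters and not evidence of binding.

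The first comparison asked how transcripts of the drug's own targets and of the kinase system responded to JQ1. Averaged over the lines, 5 of the 9 genes rose (Hexim1, Brd2, Mepce, Ccnt1 and Cdk9), 2 fell (Hexim2 and Ccnt2) and 2 did not pass the test (Brd3 and Larp7). Of all 12413 genes tested, 30.7% were called higher and 31.3% lower. The median log2 change was 0.22 over the 9 genes and 0.0036 over all genes, and the median absolute change was 0.57 and 0.25. In each of 5 genes all 4 JQ1 libraries lay above all 4 DMSO libraries, as for 23.7% of genes tested, and in 3 (Hexim2, Ccnt2 and Larp7) all 4 lay below, as for 24.8%. All 9 passed the filter on low counts, but Hexim2 only through its DMSO libraries: all 4 of these reached the minimum of 0.871 CPM and 1 of the 4 JQ1 libraries did. The medians over the 9 genes include Hexim2, and medians without it were not computed. In bulk RNA, fewer cells that express a gene and less RNA per cell cannot be told apart. Rises and falls are relative to the other transcripts of a library, and a change of total RNA per cell was not measured.

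**Figure D1:**
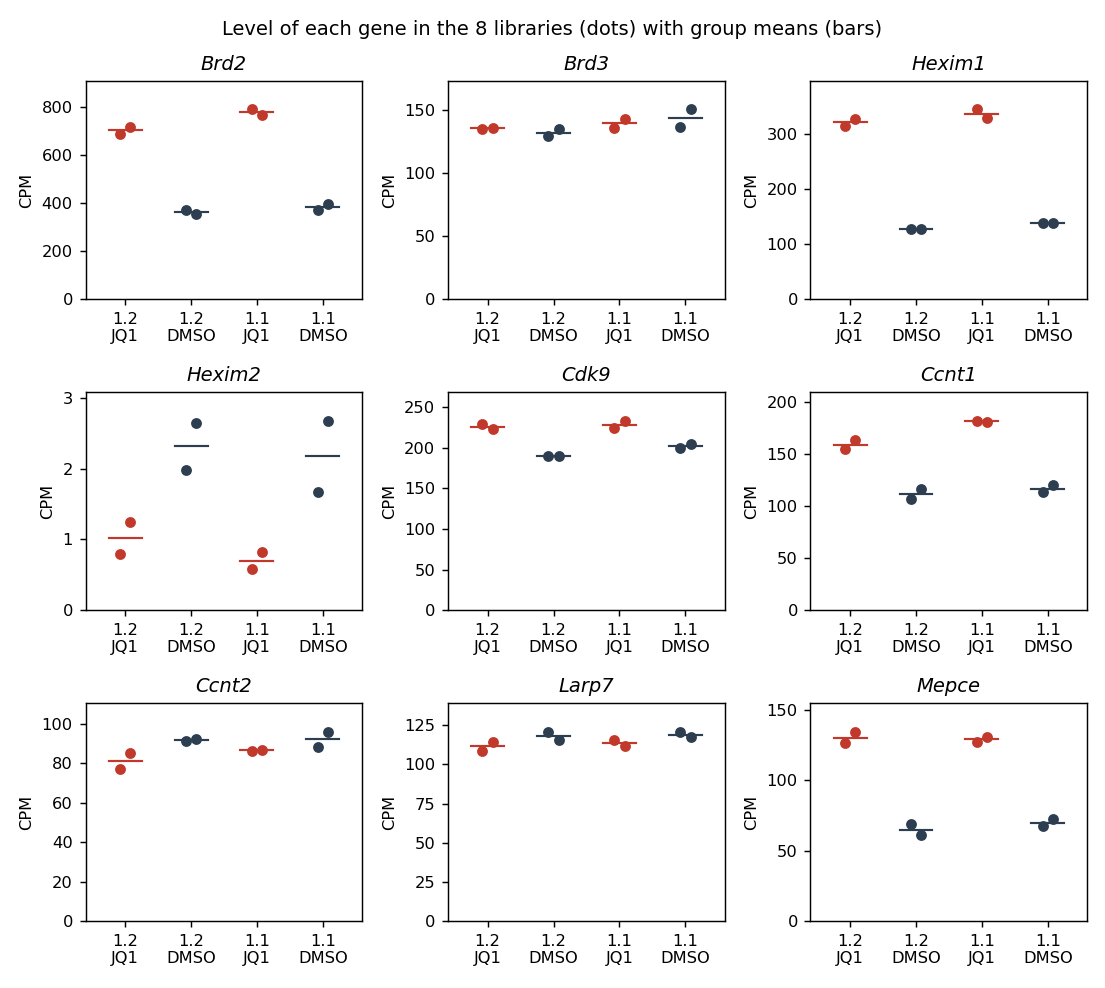
Level of each gene in CPM (y axis, from 0) in each of the 8 libraries, grouped by line and treatment (x axis). Dots are libraries, red for JQ1 and dark for DMSO, and bars are means of 2. Brd2, Hexim1, Mepce and Ccnt1 separate clearly by treatment, Brd3 overlaps, and Hexim2 is lower in JQ1 on a scale that ends near 3 CPM.

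Of the BET genes, Brd2 rose and Brd3 did not pass the test. Brd2 stood at 689 and 718 CPM in line 1.2 JQ1 libraries, against 370.1 and 353 CPM in line 1.2 DMSO libraries. In line 1.1 it stood at 790.4 and 769 CPM with JQ1, against 370.3 and 395 CPM with DMSO. Every JQ1 library was above every DMSO library by a wide margin. The averaged fold change was 1.99 (95% interval 1.90 to 2.09, log2 0.99 ± 0.033 SE, edgeR quasi-likelihood adjusted p = 5.76e-18).

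Brd3, which encodes a BET protein of the same architecture, had 135 and 136 CPM in line 1.2 JQ1 libraries, against 129 and 135 CPM in line 1.2 DMSO libraries. In line 1.1 it had 136 and 142.5 CPM with JQ1, against 137 and 150.4 CPM with DMSO. The groups overlapped. The fold change was 0.999, with a 95% interval of 0.946 to 1.06 (edgeR adjusted p = 0.982), so a change of the size seen for Brd2 lies outside the interval. The testis BET gene Brdt had 3 to 11 reads per library and did not pass (log2 0.71 ± 0.41, edgeR adjusted p = 0.132).

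Of the inhibitors of P-TEFb, Hexim1 had the largest rise of the 9 genes. Hexim1, the main HEXIM transcript of these cells, had 315 and 327 CPM in line 1.2 JQ1 libraries, against 127 and 128 CPM in line 1.2 DMSO libraries, and in line 1.1 344 and 329 CPM with JQ1, against 138 and 139 CPM with DMSO. The lowest JQ1 library was far above the highest DMSO library in each line. Its fold change of 2.47 (95% interval 2.35 to 2.59, log2 1.30 ± 0.034 SE, edgeR adjusted p = 6.65e-20) ranked 272nd from the top among the 12413 genes.

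Hexim2, whose protein can replace HEXIM1 in the 7SK particle, was a rare transcript. It had 9 and 14 reads (0.792 and 1.24 CPM) in line 1.2 JQ1 libraries, against 22 and 32 reads (1.99 and 2.65 CPM) in line 1.2 DMSO libraries. In line 1.1 it had 7 and 9 reads (0.578 and 0.821 CPM) with JQ1, against 22 and 28 reads (1.67 and 2.68 CPM) with DMSO. All JQ1 libraries were below all DMSO libraries, and the spread within a group was wide for so few reads. The fold change was 0.380 (95% interval 0.258 to 0.561, log2 -1.39 ± 0.27 SE, edgeR adjusted p = 9.10e-05). Since Hexim2 entered the test only through its DMSO libraries, that p is not taken as support for the fall. With no filter on low counts the log2 change was -1.39 (edgeR adjusted p = 3.33e-07, in a range of 3.33e-07 to 0.00814 over the alternatives). These values rest on the same few reads and are not taken as support for the fall either.

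The kinase and its cyclins changed less. Cdk9, the catalytic subunit, had 229 and 223 CPM in line 1.2 JQ1 libraries, against 190.0 and 190.1 CPM in line 1.2 DMSO libraries, and in line 1.1 224 and 234 CPM with JQ1, against 199 and 204 CPM with DMSO. The treatments did not overlap, and the rise was 1.16-fold (95% interval 1.11 to 1.22, log2 0.22 ± 0.033 SE, edgeR adjusted p = 4.64e-06).

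Ccnt1, the cyclin T best known as the partner of CDK9, had 154 and 163 CPM in line 1.2 JQ1 libraries, against 107 and 116 CPM in line 1.2 DMSO libraries. In line 1.1 it had 182 and 181 CPM with JQ1, against 113 and 120.0 CPM with DMSO. It rose 1.49-fold (95% interval 1.41 to 1.57, log2 0.57 ± 0.038 SE, edgeR adjusted p = 3.44e-12). The antisense gene 9330020H09Rik went the other way, at -0.58 ± 0.21 on the log2 scale (edgeR adjusted p = 0.0216), with a mean of 2.06 CPM.

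Ccnt2, the alternative cyclin, had 76.9 and 85.2 CPM in line 1.2 JQ1 libraries, against 91.4 and 92.1 CPM in line 1.2 DMSO libraries, and in line 1.1 86.3 and 86.7 CPM with JQ1, against 88.3 and 95.9 CPM with DMSO. The fall was to 0.912 of the DMSO level (95% interval 0.857 to 0.970, log2 -0.13 ± 0.043 SE, edgeR adjusted p = 0.0101). This call rests on 1 library: without line 1.2 JQ1 replicate 1 the log2 change was -0.095 and the adjusted p 0.0968, and with DESeq2 the adjusted p was 0.0554, in a range of 0.000635 to 1 over the alternatives. With the Gm42418 covariate the log2 change was -0.24.

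The structural proteins of the 7SK particle also parted. Mepce, which caps 7SK RNA, had 126 and 134 CPM in line 1.2 JQ1 libraries, against 69.0 and 61.1 CPM in line 1.2 DMSO libraries. In line 1.1 it had 128 and 131 CPM with JQ1, against 67.6 and 72.6 CPM with DMSO. Its 1.92-fold rise (95% interval 1.81 to 2.05, log2 0.94 ± 0.044 SE, edgeR adjusted p = 3.59e-15) was close in size to that of Brd2.

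Larp7, which binds the 3′ end of 7SK RNA, had 108 and 114 CPM in line 1.2 JQ1 libraries, against 121 and 115 CPM in line 1.2 DMSO libraries, and in line 1.1 115 and 112 CPM with JQ1, against 120.3 and 117 CPM with DMSO. The groups touched, with the highest JQ1 library at 115.2 CPM and the lowest DMSO library at 115.3 CPM. The ratio of JQ1 to DMSO was 0.949 (95% interval 0.899 to 1.002, edgeR adjusted p = 0.0877). It passed with upper-quartile scaling (adjusted p = 0.0364), with library totals (0.00825) and without line 1.1 DMSO replicate 2 (0.0350), in a range of 0.00825 to 1. The RNA itself, Rn7sk, had 0 to 3 reads per library and did not pass the filter, so its level was not measurable in these libraries.

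**Figure D2:**
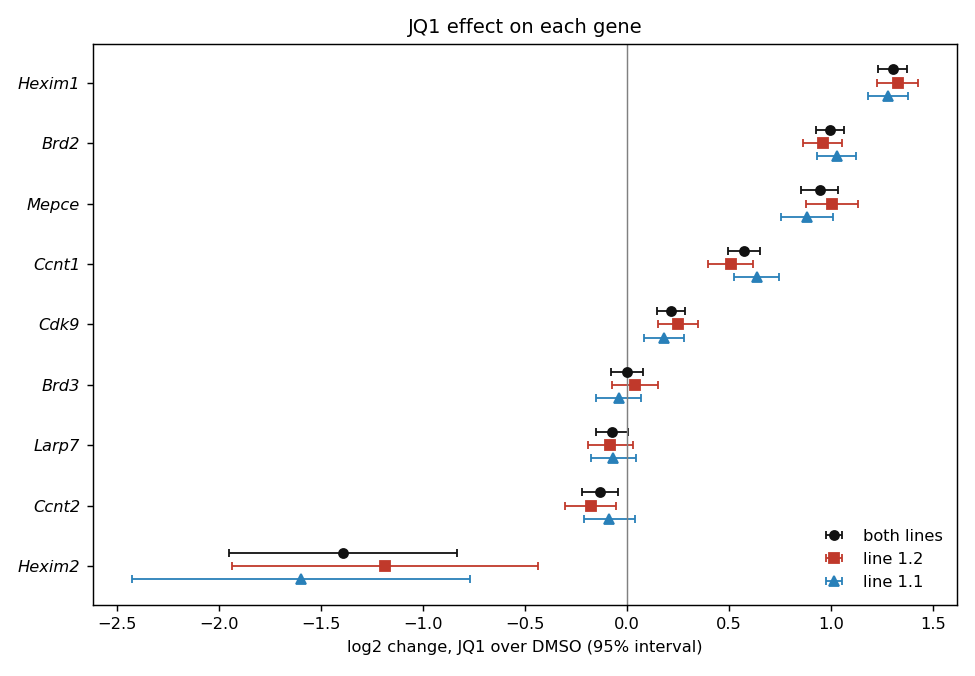
Log2 change of each gene, JQ1 over DMSO (x axis), ordered from the largest rise to the largest fall. Symbols are the averaged effect and the effect in each line, and bars are 95% intervals from the edgeR fit. Hexim1, Brd2 and Mepce lie near or above 0.9 in both lines, Brd3 and Larp7 near 0, and Hexim2 below 0 with the widest intervals.

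Compared per length, the order of the transcripts differed between the treatments. On the scale of CPM per kilobase of merged exons, the highest levels in line 1.2 JQ1 were those of Hexim1 (91.7 ± 2.5, SD, n = 2 here and below) and Brd2 (89.9 ± 2.6), which did not differ beyond their spread. Cdk9 (49.0 ± 0.92) and Larp7 (47.1 ± 1.7) came next and were also within their spread, and then Mepce (36.7 ± 1.6). Brd3 (18.5 ± 0.077), Ccnt1 (17.3 ± 0.68), Ccnt2 (6.57 ± 0.47) and Hexim2 (0.428 ± 0.13) followed. In line 1.2 DMSO, Larp7 came first on the same scale, at 49.9 ± 1.6, before Brd2 (46.2 ± 1.5), Cdk9 (41.2 ± 0.016) and Hexim1 (36.5 ± 0.20). Mepce (18.3 ± 1.6) and Brd3 (18.0 ± 0.49) did not differ beyond their spread there, and Ccnt1 (12.2 ± 0.68), Ccnt2 (7.43 ± 0.037) and Hexim2 (0.977 ± 0.20) were the lowest. This order depends on the length used. With the longest annotated transcript as length, Brd2 was above Larp7 in line 1.2 DMSO (79.5 and 75.9, against 56.9 and 54.4). In line 1.2 JQ1, Brd2 was then above Hexim1 (148.0 and 154.2, against 90.0 and 93.5). Cdk9 was above Larp7 there (64.3 and 62.6, against 51.1 and 53.9).

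In line 1.1 JQ1 the levels per kilobase ran from Brd2 (99.6 ± 1.9) and Hexim1 (96.3 ± 3.1) over Cdk9 (49.6 ± 1.5), Larp7 (47.9 ± 1.1), Mepce (36.3 ± 0.60), Ccnt1 (19.8 ± 0.096), Brd3 (19.0 ± 0.62) and Ccnt2 (7.01 ± 0.021) to Hexim2 (0.295 ± 0.072). Brd2 and Hexim1, Cdk9 and Larp7 were again within their spread. In line 1.1 DMSO they ran from Larp7 (50.2 ± 0.95) over Brd2 (48.9 ± 2.2), Cdk9 (43.8 ± 0.73), Hexim1 (39.7 ± 0.18), Mepce (19.7 ± 0.99), Brd3 (19.6 ± 1.3), Ccnt1 (12.7 ± 0.52) and Ccnt2 (7.46 ± 0.44) to Hexim2 (0.916 ± 0.30), and Larp7 and Brd2, like Mepce and Brd3, were within their spread. Hexim2 was last in all 4 groups. With the longest annotated transcript as length, Brd2 was above Hexim1 in line 1.1 JQ1 (169.7 and 165.2, against 98.5 and 94.1). Cdk9 was above Larp7 there (62.8 and 65.5, against 54.3 and 52.6). In line 1.1 DMSO, Brd2 was then above Larp7 (79.5 and 84.8, against 56.7 and 55.2). Brd3 was above Mepce there (25.2 and 27.8, against 21.6 and 23.2).

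Ratios within a library need no scaling between libraries, and they are given as a description with no test. The ratio of Hexim1 plus Hexim2 to Cdk9, in CPM per kilobase, was 1.82 and 1.94 in line 1.2 JQ1 libraries, against 0.903 and 0.917 in line 1.2 DMSO libraries. In line 1.1 it was 2.03 and 1.86 with JQ1, against 0.930 and 0.924 with DMSO. In these units the HEXIM transcripts were thus above Cdk9 in all 4 JQ1 libraries and below it in all 4 DMSO libraries. With the longest annotated transcript as length the group means were 1.46 (line 1.2 JQ1), 0.708 (line 1.2 DMSO), 1.51 (line 1.1 JQ1) and 0.721 (line 1.1 DMSO), on the same sides of 1. Relative to the summed cyclins Ccnt1 and Ccnt2, the HEXIM transcripts stood at 3.92 and 3.80 in line 1.2 JQ1 libraries, against 1.95 and 1.88 in line 1.2 DMSO libraries, and in line 1.1 at 3.68 and 3.53 with JQ1, against 2.06 and 1.96 with DMSO.

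Hexim1 relative to Larp7 stood at 1.96 and 1.94 in line 1.2 JQ1 libraries, against 0.713 and 0.752 in line 1.2 DMSO libraries, and in line 1.1 at 2.02 and 2.00 with JQ1, against 0.777 and 0.804 with DMSO. Brd2 relative to Brd3 stood at 4.78 and 4.95 in line 1.2 JQ1 libraries, against 2.68 and 2.46 in line 1.2 DMSO libraries, and in line 1.1 at 5.45 and 5.06 with JQ1, against 2.54 and 2.46 with DMSO. Ccnt1 relative to Ccnt2 stood at 2.70 and 2.58 in line 1.2 JQ1 libraries, against 1.58 and 1.696 in line 1.2 DMSO libraries, and in line 1.1 at 2.84 and 2.81 with JQ1, against 1.73 and 1.69 with DMSO. In each of these ratios no JQ1 library overlapped a DMSO library. Hexim2 made up a small part of the HEXIM transcripts throughout, with a ratio of Hexim1 to Hexim2 of 179 to 404 in JQ1 libraries, against 32.8 to 56.1 in DMSO libraries, on the few Hexim2 reads given above.

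**Figure D3:**
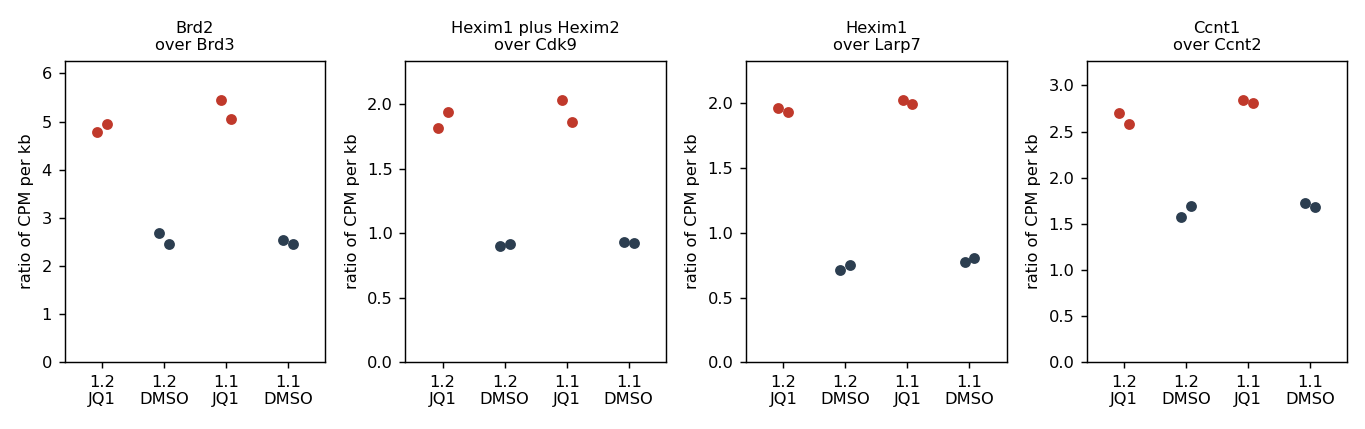
Ratios of transcript levels within each library, from CPM per kilobase of merged exons (y axes, from 0), for 4 pairs. Dots are single libraries, red for JQ1 and dark for DMSO, by line and treatment on the x axis. In every panel all JQ1 libraries lie above all DMSO libraries, in both lines.

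The second comparison asked whether the 2 lines responded alike. In line 1.2, 7 of the 9 genes passed (5 higher, 2 lower), where 49.4% of all genes tested did. In line 1.1, 6 passed (5 higher, 1 lower), where 51.0% of all genes tested did. The same 5 genes rose in each line. Hexim2 was called lower in each, with the limit that it passed the filter only through its DMSO libraries. Ccnt2 passed in line 1.2 (log2 -0.18, edgeR adjusted p = 0.0184) and not in line 1.1 (-0.087, edgeR adjusted p = 0.244). The difference between these Ccnt2 effects, -0.092 with a 95% interval of -0.27 to 0.086, did not pass (edgeR adjusted p = 0.822). The Ccnt2 call of line 1.2 was lost without any 1 of 3 libraries (line 1.2 JQ1 replicate 1, line 1.2 DMSO replicate 1 or 2; adjusted p 0.281, 0.0631 and 0.0922) and with DESeq2 (0.0934), while the Gm42418 covariate moved the log2 change to -0.42. That of Hexim2 in line 1.2 (log2 -1.19 ± 0.36, edgeR adjusted p = 0.00871) was lost without line 1.2 JQ1 replicate 1 (adjusted p = 0.110) or DMSO replicate 2 (0.110) and with DESeq2 (0.0840), in a range of 0.00284 to 0.110, and the covariate moved its log2 change to -2.32.

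None of the 9 genes passed the test of the difference between the lines' responses in edgeR, where 0.113% of all genes did, and none passed with DESeq2 or limma-voom. None had an unadjusted p under 0.05, as did 1000 of the 12413 genes. The largest differences by size were those of Hexim2 (line 1.2 minus line 1.1, 0.41 on the log2 scale, 95% interval -0.76 to 1.58; -0.86 with the Gm42418 covariate), Ccnt1 (-0.13, -0.29 to 0.028) and Mepce (0.12, -0.061 to 0.30). As ratios of the fold changes, line 1.2 over line 1.1, the 95% intervals were 0.938 to 1.14 for Hexim1 and 0.868 to 1.05 for Brd2. That of Hexim2 was 0.592 to 2.98, so with its few reads even a large difference between the lines was not detectable at this depth.

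The lines were also compared within each treatment. In DMSO, line 1.2 against line 1.1, none of the 9 genes passed (edgeR), where 6.77% of all genes tested did, and 2 had an unadjusted p under 0.05, as did 2512 of the 12413 genes (Hexim1 at -0.12 and Brd3 at -0.12 on the log2 scale, adjusted p = 0.184 and 0.217). With DESeq2 and with limma-voom the count was also 0. Brd3 passed without line 1.1 DMSO replicate 1 (log2 -0.19, adjusted p = 0.0139, in a range of 0.0139 to 0.600). Under JQ1, Ccnt1 was lower in line 1.2, at 159 ± 6.2 CPM, against 181 ± 0.88 CPM in line 1.1 (SD, n = 2; log2 -0.19 ± 0.052 SE, edgeR adjusted p = 0.0266), where 6.40% of all genes passed. This call was lost without any 1 of the 4 JQ1 libraries (adjusted p 0.0557 to 0.329), with DESeq2 (log2 -0.20, 0.123) and with the Gm42418 covariate (log2 -0.31, 0.0517), in a range of 0.00125 to 0.329. Brd2 was at 704 ± 20 CPM in line 1.2, against 780 ± 15 CPM in line 1.1, and missed the threshold (log2 -0.15, edgeR adjusted p = 0.0522). It passed without line 1.1 DMSO replicate 1 (0.00285) or 2 (0.00216), with RLE scaling (0.0450), limma-voom (0.0326) and the Gm42418 covariate (0.0263), in a range of 0.00216 to 0.391.

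The nearest genes changed in both directions. Upstream of Hexim1 lies Acbd4, which rose by less (log2 0.38 ± 0.073, edgeR adjusted p = 7.55e-05), and beyond Hexim2 lies Fmnl1, a formin gene of blood cells, which fell (-0.65 ± 0.040, edgeR adjusted p = 9.71e-13). Along this stretch of chromosome 11, Acbd4 and Hexim1 rose and Fmnl1 fell. Hexim2, which lies between Hexim1 and Fmnl1, was called lower on few reads and passed the filter only through its DMSO libraries. Its direction is therefore not relied on here. Next to Cdk9, Fpgs, which encodes the enzyme that retains folates in the cell, rose slightly (0.16 ± 0.042, edgeR adjusted p = 0.00214; 0.13 and 0.0708 with the Gm42418 covariate) and Sh2d3c, at a distance of 7979 bases, fell (-2.07 ± 0.086, edgeR adjusted p = 4.26e-16).

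Zgrf1 starts 140 bases from Larp7 and on the other strand, and it fell (-0.35 ± 0.061, edgeR adjusted p = 2.08e-05) where Larp7 did not pass. Zcwpw1 starts 143 bases from Mepce on the other strand, and it stood at 0.0020 ± 0.11 (edgeR adjusted p = 0.989) where Mepce rose. On the other side of Mepce, Ppp1r35 stood at -0.22 ± 0.098 (adjusted p = 0.0562), and it passed without line 1.2 DMSO replicate 1 (0.0310) or line 1.1 DMSO replicate 2 (0.00693), with upper-quartile scaling (0.0402) and with library totals (0.0239). Wdr5, next to Brd3, rose by 0.12 ± 0.037 (adjusted p = 0.00775) and lost its call with library totals (0.0776) and without line 1.2 DMSO replicate 2 (0.0724). Kansl2, next to Ccnt1, rose by 0.092 ± 0.036 (adjusted p = 0.0288) and lost its call with upper-quartile scaling (0.0786), library totals (0.250) and DESeq2 (0.0855), and without any 1 of 5 libraries (line 1.2 JQ1 replicate 2, line 1.2 DMSO replicate 1, line 1.1 JQ1 replicates 1 and 2, and line 1.1 DMSO replicate 2; 0.0744 to 0.110). Of the remaining neighbours, H2-Oa (next to Brd2) and Acmsd (next to Ccnt2) did not pass (edgeR adjusted p = 0.301 and 0.611), and H2-DMb2, 4930415O20Rik, Map3k19 and Ank2 had too few reads to be tested.

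The genes whose level followed that of a member most closely over the 8 libraries were found among 8448 genes by Pearson correlation of log2 CPM. The libraries fall into JQ1 and DMSO clusters, so for genes that rose or fell the coefficients carry that split, and no p is given. For Hexim1 they were Ski, a repressor of TGF-beta signalling (r = 0.999), Rbm15, an RNA-binding protein (0.999) and Nsf, a membrane fusion ATPase (0.999), with log2 changes of 0.95, 1.27 and 0.48. For Brd2 they were Etv3, Cd81 and Ern1 (0.999, 0.999 and 0.998). For Mepce they were Zgpat, Ctr9, a subunit of the PAF elongation complex, and Glyr1 (each 0.996).

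For Ccnt1 genes among the closest were Zkscan1 and Peli1 (each 0.997), and for Cdk9 the citrate synthase gene Cs (0.992), Slc25a25 (0.992) and the chaperone gene Hsp90ab1 (0.990). For Hexim2 they were Hes1 (0.989), Anks1 (0.978) and the Mediator gene Med12 (0.977), with log2 changes of -0.48, -0.33 and -0.43. For the remaining members the closest genes were Nipbl, Prrc2c and Zfp35 for Brd3 (0.979, 0.947 and 0.935), Insr, Trappc8 and Mccc1 for Ccnt2 (0.964, 0.941 and 0.939) and Med28, Exo5 and Mrpl16 for Larp7 (0.954, 0.952 and 0.942).

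Around the 9 genes, the other transcripts of the elongation machinery moved in both directions. Of 16 genes of the super elongation complex and of the pausing factors DSIF and NELF, 15 were tested, of which 7 rose and 4 fell. Their median log2 change was 0.15, against 0.0036 for all genes, of which 30.7% rose and 31.3% fell; the counts of the other lists below are to be read against the same shares. Ell2 (log2 change 1.03 ± 0.097) and the scaffold gene Aff4 (0.63 ± 0.037), both of the complex that carries active P-TEFb, rose. Among the further scaffold genes of this list, Aff1 fell (-0.33 ± 0.036). Aff3 rose (0.33 ± 0.040, edgeR adjusted p = 1.18e-07; named after its value was seen). Supt5, the DSIF subunit that P-TEFb phosphorylates, rose by 0.35 ± 0.032. Among 15 genes of 7SK RNA and of proteins that bind the particle or free P-TEFb from it, 14 were tested, 4 rose and 5 fell (median -0.043). Hnrnpr, Syncrip and Hnrnpa1, which encode hnRNPs found on 7SK RNA without P-TEFb, fell by 0.70, 0.52 and 0.43, while Hnrnpa2b1, a further hnRNP of the list, did not pass (-0.063, edgeR adjusted p = 0.108; named after its value was seen). Srsf2, a splicing factor that also binds 7SK RNA, rose by 0.68 ± 0.034.

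Polr2a, the large subunit of RNA polymerase II whose tail P-TEFb phosphorylates, rose by 1.14 ± 0.034 (edgeR adjusted p = 8.50e-19). In its list of 21 genes, with other kinases, cyclins and phosphatases of that tail, 9 rose and 8 fell (median -0.029). Cdk13 and Ccnl2 rose by 0.47 and 0.45, and the phosphatase gene Ctdsp1 fell by 0.43. Of 35 bromodomain genes outside the BET family, 34 were tested, 9 rose (5 with library totals, 3 with the Gm42418 covariate) and 18 fell (median -0.17), with Zmynd8 at -1.25 ± 0.063, Sp110 at -0.81 ± 0.049, Cecr2 at -0.50 ± 0.031 and the chromatin remodeller gene Pbrm1 at 0.39 ± 0.033. The lists were chosen with earlier results of these data known, and their counts are descriptions.

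**Figure D4:**
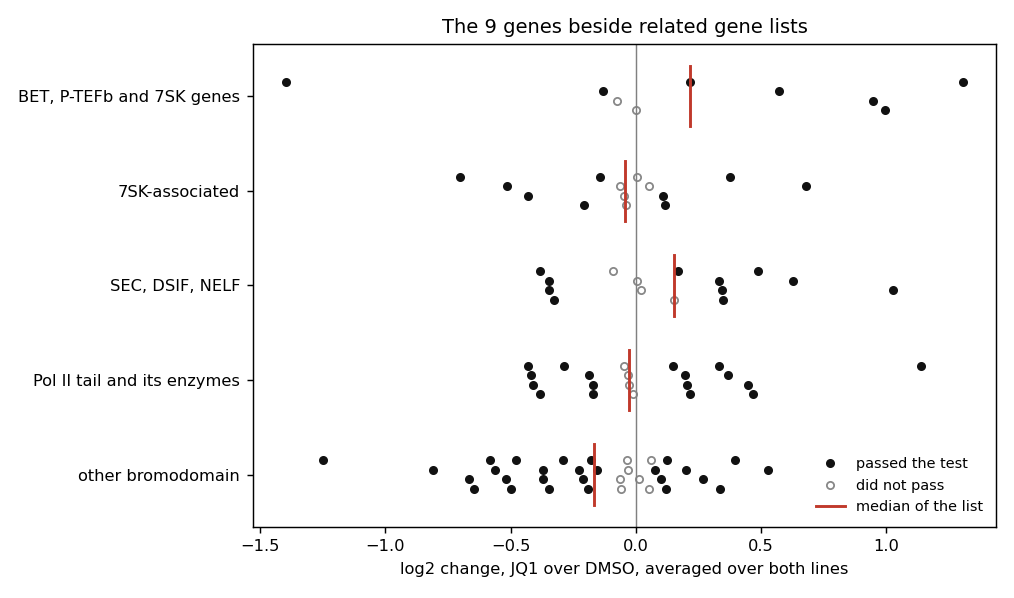
Averaged log2 change, JQ1 over DMSO (x axis), of the 9 genes and of the tested genes of 4 related lists (rows). Filled dots passed the threshold, open dots did not, and red bars are list medians. The 9 genes run from -1.39 to 1.30, and each list has genes on both sides of 0.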

How the data were processed

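RNA-seq reads of 8 libraries were trimmed, aligned and counted by the authors; the submitters' processing notes name FastQC, cutadapt 1.7, TopHat, Bowtie2, HTSeq and limma, and the builds GRCm38 and mm10. The annotation release is not given in the sources used here, nor is the strand setting of the counting. The deposited values are raw read counts per Ensembl gene, not normalized, per the file itself. Of its 43629 identifiers, 42548 matched GENCODE M21. The 5 summary lines entered neither library sizes nor tests (12.3 to 14.4% of reads in no gene, 1.54 to 1.67% ambiguous).

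Counts were scaled by TMM, filtered with filterByExpr (minimum count 10, total 15) and fitted in edgeR 4.0.16 (R 4.3.3) with the quasi-likelihood F test on 4 group means. All 12413 remaining genes were adjusted together by the Benjamini-Hochberg method, two-sided, at a threshold of 0.05. Levels are CPM of TMM-scaled libraries, and CPM per kilobase of merged exons where genes are compared. Intervals of 95% come from the fit. Promoters are from RefSeq (GRCm38.p6), and 7 of 9 symbols matched; no protein sequences were used. Each alternative (RLE, upper-quartile or library-total scaling, DESeq2 1.42.0, limma-voom with limma 3.58.1, other filters, a replicate block, a Gm42418 covariate, each library left out, the lines fitted apart, an additive model, a test against a fold of 1.5, another transcript length) changed 1 choice, except that DESeq2 also brings its own scaling.

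The members and lists were chosen with earlier results of these data known. Named besides the 9 genes were the nearest protein-coding neighbours, overlapping genes, the 3 most alike genes of each member with at least 5 CPM on average, and 4 genes per list with the smallest p. For Ccnt1, 1 of the 3 is not reported here.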

Additional observations from a re-analysis of the deposited data

How the results depend on the processing

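Hexim1, Brd2 and Mepce kept their averaged rise under 19 of 19 alternatives (log2 1.26 to 1.32, 0.93 to 1.01 and 0.85 to 0.99). Hexim2 was called lower under 18 of 18 that gave a value (-1.89 to -1.22). All of these rest on its same few reads, and they are not taken as support for the fall. Brd3 passed in none (-0.068 to 0.030). Over all 948 values of the 9 genes, 917 stayed on their side of the threshold, 20 lost the call, 11 gained it and no called value changed sign; of 511 values of other named genes, 27 lost it, 4 gained it and no called value changed sign. No scaling moved the median of all genes by over 0.1. Each scaling is relative to the other reads of a library, so a shift of all transcripts together could not show there.

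Against a fold of 1.5, 1458 genes passed in place of 7692, and of the 9 genes 3 were higher and 1 lower (Cdk9, Ccnt1 and Ccnt2 lost). The count of members lower was 1 (averaged), 0 (line 1.2) and 0 (line 1.2 below line 1.1 under JQ1) with DESeq2, and 1 (averaged), 0 (line 1.1) and 1 (line 1.2) with a minimum of 5 CPM in 2 libraries, which removed Hexim2. With RLE scaling or limma-voom, 2 members were lower in line 1.2 under JQ1. Leaving out 1 library, where the lone library of a group is assumed to vary like the others, gave 1 to 3 members lower (averaged), 1 to 2 (line 1.1), 0 to 2 (line 1.2), 0 to 1 (lines in DMSO) and 0 to 2 (lines in JQ1). In line 1.1 the added gene was Ccnt2 without DMSO replicate 1 (adjusted p = 0.0457), and Cdk9 was lost without JQ1 replicate 2 (0.0512). Larp7 passed in line 1.2 with library totals (0.0476), and Cdk9 was lost there with the Gm42418 covariate (log2 0.24 against 0.25, adjusted p = 0.0511).

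Over all genes, 2908 passed in line 1.2 with that covariate in place of 6136. The difference of effects had 14 genes in edgeR, 6 with DESeq2, 80 without a filter, 8 with the stricter filter, 8 with the covariate, and 8 to 459 on leaving out 1 library, the highest without line 1.1 DMSO replicate 1 and the next, 44, without replicate 2. The lines in DMSO differed in 840 genes, 303 with DESeq2 and 313 to 1318 on leaving out 1 library; the lines in JQ1 in 795, 328 with DESeq2, 343 with the covariate and 281 to 1538. The causes were not tested. Same-numbered libraries did not deviate together (correlations -0.060 to 0.053 over 9382 genes). With 2 libraries per group this cannot show whether the numbers stand for a shared batch or culture. With the replicate block the difference of effects had 26 genes and no call of the 9 genes changed. Against a fold of 1.5 the 4 related lists each had 0 or 1 gene higher and 0 to 2 lower. Low counts limit Hexim2 most.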
